A study of Mus musculus with 6 samples.

Results

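The 10 genes described here encode proteins of the growth cone and of growth-associated cytoskeletal remodelling. All 10 were found by symbol among the 54109 genes counted. They were Gap43, Basp1, Marcks and Marcksl1, the stathmin genes Stmn1, Stmn2, Stmn3 and Stmn4, and Gas7 and Chn2. The list was chosen by gene function and with the read counts of Sox10ko against control known. The differences of these genes are therefore given as a description, with their errors and no p-value, and counts of calls among them support nothing.

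Messenger RNA was sequenced from cultures of Msc80, a mouse Schwann cell line, all grown in serum-containing medium. In 3 Sox10ko cultures the gene of the glial transcription factor Sox10 had been inactivated by CRISPR/Cas9 editing, and 3 control cultures had the genotype Sox10 wt. Each group was labelled as biological replicates. The Sox10ko cultures are each described as a cell clone, and whether 1 or several clones were used is not given, so that loss of Sox10 and a difference between clones cannot be told apart. The Sox10ko libraries held between 32328618 and 41529422 counted reads and the control libraries between 37473994 and 41834431. Sox10 itself was read at 82.3, 67.5 and 116 CPM in Sox10ko and at 606, 627 and 617 CPM in control. CPM are read counts scaled to a common library total (with TMM factors), and values per library follow the replicate numbers throughout. Of 13 Schwann cell markers, with Sox10 itself among them, 10 were lower and 1 was higher in Sox10ko (edgeR, adjusted p under 0.05, as 14.7% and 17.3% of all tested genes were), and their summed level, Sox10 included, was 183 to 270 CPM in Sox10ko and 4609 to 5171 CPM in control.

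A growth cone is the motile tip of an extending axon. GAP43, BASP1 and the MARCKS proteins lie at the inner face of the plasma membrane, bind calmodulin and acidic phospholipids and are substrates of protein kinase C, and through these ties they act on the actin cortex. Stathmins bind tubulin dimers and promote microtubule disassembly. GAS7 is an F-BAR protein that binds membranes and actin filaments, and beta-chimaerin, the product of Chn2, is a diacylglycerol-activated GTPase-activating protein for Rac. In peripheral nerve, GAP43 is also found in immature, non-myelinating and denervated Schwann cells.

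The stretches in which the paralogues are most alike are shown because they mark the shared function of each family and bear on how well reads can be assigned. In the MARCKS pair it is the basic effector domain, which binds calmodulin and carries the protein kinase C sites. The coding sequences, from GENCODE M21 transcripts on GRCm38, cover coding bases 436 to 510 of Marcks (chromosome 10) and 259 to 333 of Marcksl1 (chromosome 4), with the 55 of 75 bases that the pair share in capitals.
Marcks: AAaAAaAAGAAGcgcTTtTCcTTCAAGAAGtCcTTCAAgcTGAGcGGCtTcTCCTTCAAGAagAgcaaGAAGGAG
Marcksl1: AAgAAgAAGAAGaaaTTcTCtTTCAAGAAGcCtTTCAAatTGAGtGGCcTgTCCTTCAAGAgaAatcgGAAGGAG

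Among the stathmins the best conserved stretch lies in the tubulin-binding part of the proteins. It covers coding bases 268 to 342 of Stmn1 (chromosome 4), 370 to 444 of Stmn2 (chromosome 3), 373 to 447 of Stmn3 (chromosome 2) and 481 to 555 of Stmn4 (chromosome 14), with the 47 of 75 bases common to all 4 genes in capitals.
Stmn1: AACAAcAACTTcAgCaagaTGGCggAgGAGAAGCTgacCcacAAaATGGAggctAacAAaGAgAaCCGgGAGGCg
Stmn2: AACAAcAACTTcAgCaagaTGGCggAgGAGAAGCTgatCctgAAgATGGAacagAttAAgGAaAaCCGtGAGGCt
Stmn3: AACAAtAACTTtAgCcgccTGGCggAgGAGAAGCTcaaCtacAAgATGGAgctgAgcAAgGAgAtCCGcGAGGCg
Stmn4: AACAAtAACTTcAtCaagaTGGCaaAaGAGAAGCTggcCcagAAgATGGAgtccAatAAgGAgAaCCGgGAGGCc
Over the aligned coding sequence the stathmins were 69.3% to 73.5% identical in pairs, and Marcks and Marcksl1 were 67.4% identical. The longest run of identical bases was 43 for Stmn1 and Stmn2 and 16 to 21 for the other stathmin pairs, and 17 for Marcks and Marcksl1. The annotated pseudogene Marcksl1-ps4, 94.5% identical to Marcksl1 over 291 aligned coding bases, had 0 reads over all 6 libraries.

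Sox10ko cultures had lower levels of 6 of the 10 genes and a higher level of 1. Gap43, Gas7, Chn2 and Stmn4 were left at 2.14% of the control level or less, Marcksl1 at 29.6% and Stmn1 at 61.8%. Basp1, the closest functional relative of Gap43, was 3.33-fold higher. Marcks, the most abundant of the 10 per transcript length, overlapped between the groups, and Stmn2 and Stmn3 were close to undetected in both. Of the 8 genes with enough reads for the edgeR fit over all genes, 7 had an adjusted p under 0.05, where 32.0% of the 15427 tested genes did, and the same 7 had groups that did not overlap, where 49.3% of tested genes did. Because the genes were chosen with this contrast known, nothing is read from these shares. Of these, Stmn4 and Chn2 had enough reads for the fit in the control libraries alone. In bulk RNA, fewer cells with a transcript and less of it per cell cannot be told apart.

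**Figure D1:**
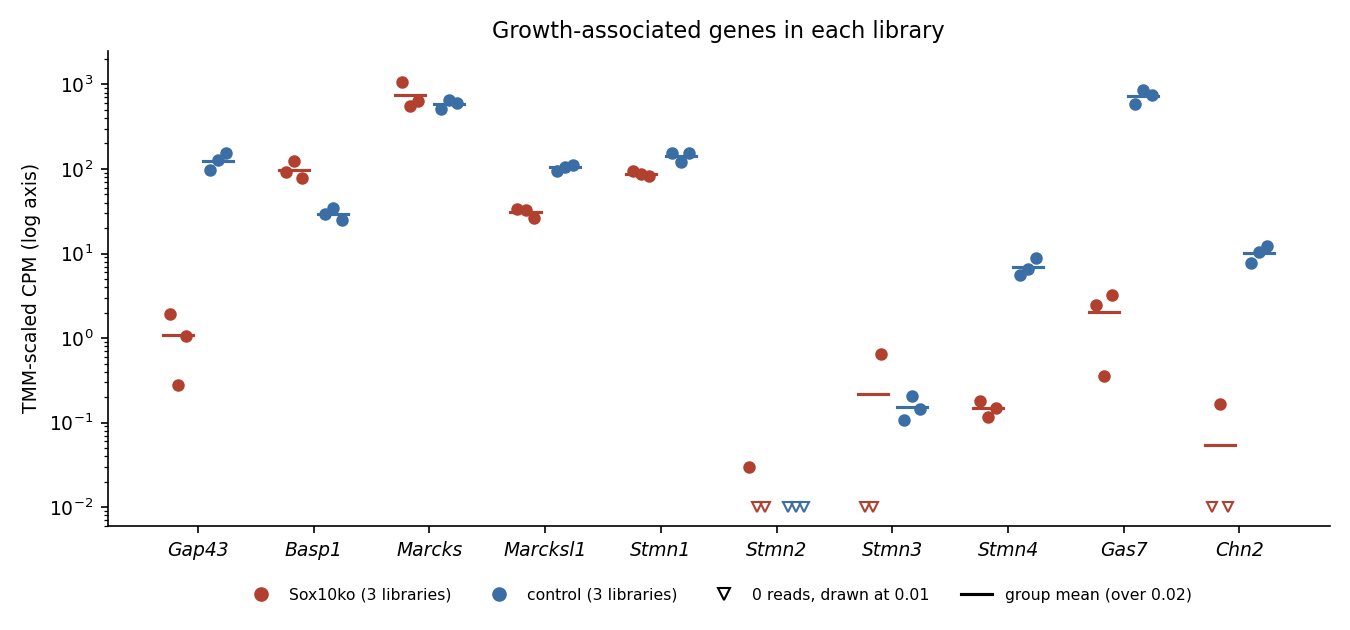
Level of each of the 10 genes in each library, as TMM-scaled CPM on a log axis, with Sox10ko to the left of control, points for the 3 libraries of a group and a bar for the group mean. Open triangles at 0.01 mark libraries with 0 reads. The Gap43 and Gas7 points of Sox10ko lie between 0.282 and 3.26 CPM and those of control between 96.0 and 857 CPM, whereas Basp1 lies higher in Sox10ko and Marcks overlaps.

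Gap43 (ENSMUSG00000047261) is a minus-strand gene (GRCm38, chromosome 16, 42248442 to 42340651). It was read at 1.92, 0.282 and 1.07 CPM in the Sox10ko libraries, against 96.0, 126 and 155 CPM in the control libraries. The groups were far apart, and the Sox10ko libraries differed widely among themselves. The 3 Sox10ko libraries kept 1.52%, 0.224% and 0.852% of the control mean, which is 64, 12 and 43 reads. The log2 fold change was -6.89 ± 0.55 (SE, here and below from the edgeR fit), and the mean was 115-fold lower, or 186-fold lower without Sox10ko replicate 1.

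Basp1 (ENSMUSG00000045763, minus strand of chromosome 15, 25363277 to 25413764), which encodes a myristoylated protein of the same functional class, ran the other way. Its level was 92.5, 123 and 78.3 CPM in Sox10ko, against 29.1, 34.5 and 24.6 CPM in control. The groups did not overlap, and the lowest Sox10ko library lay above the highest control library. Basp1 had a log2 fold change of 1.74 ± 0.20, and with any 1 library left out the mean stayed between 2.90-fold and 3.67-fold higher. Sox10ko replicate 2 had the least Gap43, 12 reads, and the most Basp1 of the Sox10ko libraries. The others did not follow this order, as replicate 1 had the most Gap43 and replicate 3 the least Basp1. Per transcript length (TPM, counts divided by exonic length and scaled to a common total), the ratio of Basp1 to Gap43 was 36.6, 332 and 55.4 in Sox10ko, against 0.230, 0.208 and 0.120 in control.

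Marcks (ENSMUSG00000069662, minus strand of chromosome 10, 37133375 to 37138920), the founding member of the effector-domain pair, was read at 1072, 562 and 643 CPM in Sox10ko, against 511, 650 and 609 CPM in control. Sox10ko replicate 1 stood above all other libraries and the other two Sox10ko libraries lay within the control range. The log2 fold change was 0.36 ± 0.24 with all libraries and 0.02 without Sox10ko replicate 1.

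Marcksl1 (ENSMUSG00000047945, plus strand of chromosome 4, 129513581 to 129515985), its smaller paralogue, was read at 33.8, 32.9 and 26.3 CPM in Sox10ko and at 95.0, 107 and 113 CPM in control. These groups were well apart and the 3 libraries of each were close together. The log2 fold change was -1.76 ± 0.13, a mean 3.38-fold lower. The TPM ratio of Marcks to Marcksl1 was 12.6, 6.77 and 9.69 in Sox10ko, against 2.13, 2.42 and 2.15 in control. Of the effector-domain pair shown above, therefore, the longer gene made up a larger part in every Sox10ko library.

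Summed over the 4 genes of the GAP43 and MARCKS group, the level per length was 1330, 896 and 833 TPM in Sox10ko, against 1037, 1300 and 1299 TPM in control, and these ranges overlapped. The make-up of the sum differed. Gap43 made up 0.263% ± 0.157 of it in Sox10ko and 26.6% ± 3.43 in control (SD, n = 3 each). Basp1 made up 19.9% ± 7.15 in Sox10ko and 4.81% ± 1.00 in control, and Marcksl1 7.74% ± 1.49 in Sox10ko and 21.2% ± 1.14 in control. Marcks held the largest share in both groups, 72.1% ± 8.47 in Sox10ko and 47.4% ± 2.18 in control.

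**Figure D2:**
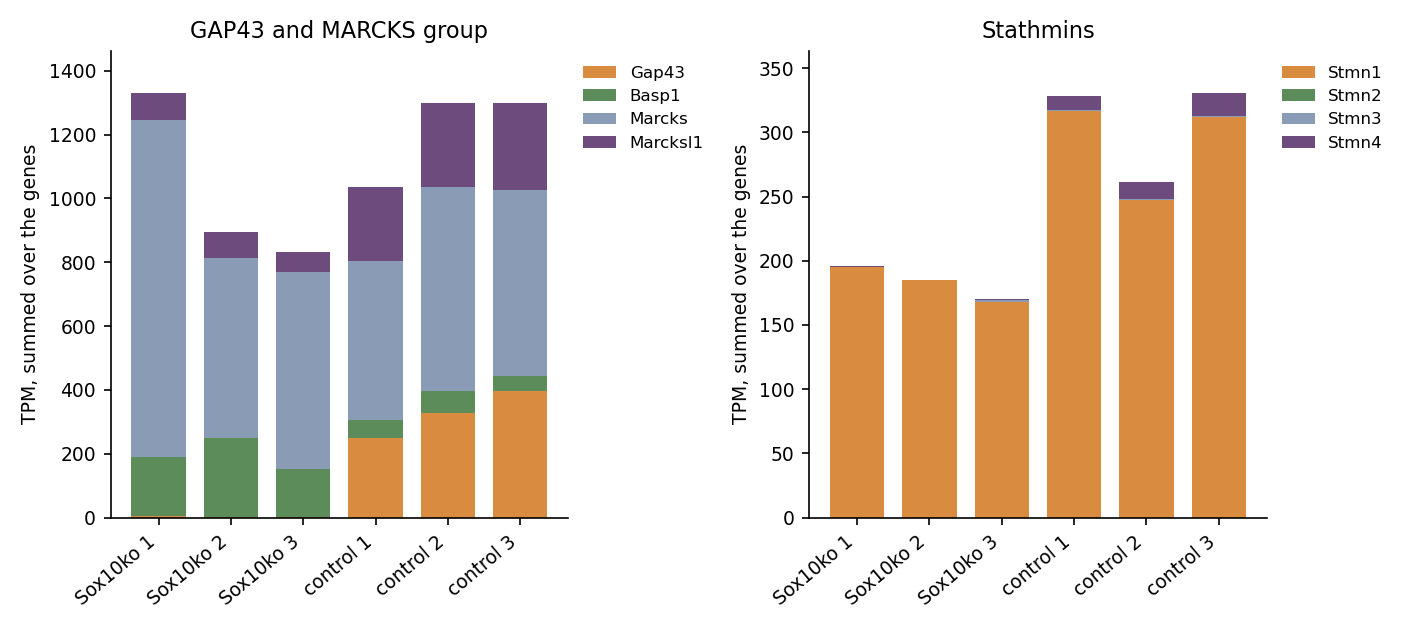
Level per transcript length (TPM) of the GAP43 and MARCKS group (left) and the stathmins (right), stacked by gene, with 1 bar per library and the Sox10ko libraries to the left of the control libraries. The summed bars of the first group span 833 to 1330 TPM in Sox10ko and 1037 to 1300 TPM in control, with Gap43 barely visible in Sox10ko. The stathmin bars span 170 to 196 TPM in Sox10ko and 262 to 330 TPM in control, and Stmn1 fills nearly all of each.

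Stmn1 (ENSMUSG00000028832, plus strand of chromosome 4, 134468320 to 134473843) encodes the ubiquitous cytosolic stathmin, which is phosphorylated in mitosis. It was read at 94.0, 87.5 and 83.1 CPM in Sox10ko and at 155, 120 and 154 CPM in control. The groups did not overlap, and control replicate 2 lay nearest to the Sox10ko libraries. On the log2 scale the difference was -0.70 ± 0.13, the mean 1.62-fold lower. Of 25 proliferation genes, 14 were lower and 0 higher in Sox10ko (edgeR, adjusted p under 0.05), where 14.7% of all tested genes were lower and 17.3% higher, with a median log2 fold change of -0.50. Among them were Mcm7 of the replicative helicase, the mitotic kinesin gene Kif11 and Pcna, the polymerase clamp gene, at 182, 220 and 176 CPM in Sox10ko and 326, 426 and 296 CPM in control. The count was 8 without control replicate 1 and 7 without control replicate 3. The summed level of the 25 was 4315 to 5575 CPM in Sox10ko and 6881 to 8170 CPM in control, and the part of proliferation in the Stmn1 difference was not tested.

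Stmn4 (ENSMUSG00000022044, plus strand of chromosome 14, 66344296 to 66361680), a membrane-anchored stathmin known from neurons, was read at 0.180, 0.117 and 0.150 CPM in Sox10ko, against 5.50, 6.48 and 8.91 CPM in control. The Sox10ko libraries held 6, 5 and 6 reads of it, and the control libraries 203, 253 and 365. All 3 Sox10ko values thus lay near the level of a handful of reads, far under the control range. For Stmn4 the log2 fold change was -5.53 ± 0.33, the mean 46.8-fold lower, and 40.2-fold to 52.2-fold lower with any 1 library left out. Stmn4 made up 0.168% ± 0.0298 of stathmin TPM in Sox10ko and 4.68% ± 1.08 in control (SD, n = 3 each).

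The other two stathmin genes of neurons were at the limit of detection. Stmn2 (chromosome 3, 8509360 to 8561606) had 1 read in Sox10ko, in replicate 1, and 0 in control, which allows up to 0.0257 CPM there (3 counts over the control group, counting error only). Stmn3 (chromosome 2, 181306459 to 181314500) had 0, 0 and 26 reads in Sox10ko, against 4, 8 and 6 in control. All of its Sox10ko reads came from replicate 3, and neither gene had enough reads for the fit.

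Gas7 (ENSMUSG00000033066, plus strand of chromosome 11, 67455437 to 67688990, 11 annotated transcripts) had the most reads of the 10 genes in control, 85756 over the 3 libraries. It was read at 2.46, 0.352 and 3.26 CPM in Sox10ko, against 579, 857 and 756 CPM in control. The Sox10ko libraries held 82, 15 and 131 reads, which is 0.336%, 0.0482% and 0.447% of the control mean. Replicate 2 was again the lowest Sox10ko library, as for Gap43. For Gas7 the log2 fold change was -8.51 ± 0.70, the mean 361-fold lower, and 255-fold to 520-fold lower with any 1 library left out. The opposite-strand gene Glp2r shares 66 exonic bases with Gas7 and had 73 reads over all 6 libraries.

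Chn2 (ENSMUSG00000004633, plus strand of chromosome 6, 54039554 to 54301810, 15 annotated transcripts) had 0, 7 and 0 reads in Sox10ko, against 287, 411 and 508 in control. That is 0.164 CPM in Sox10ko replicate 2, the only Sox10ko library with reads, against 7.78, 10.5 and 12.4 CPM in control. Here replicate 2 was the highest Sox10ko library, where for Gap43 and Gas7 it was the lowest. The mean was 187-fold lower (log2 fold change -7.36 ± 0.80), and without Sox10ko replicate 2 it was at least 251-fold lower, set against 3 counts over the remaining Sox10ko libraries. Opposite-strand transcripts over Chn2 exons, Gm15527 and 9130019P16Rik, had 7 reads each over all libraries. Gene counts do not show from which of its start sites the reads came.

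Ordered by level per length in Sox10ko, Marcks came first at 745 ± 271 TPM, followed by Basp1 (195 ± 49.9 TPM), Stmn1 (183 ± 14.0 TPM) and Marcksl1 (76.9 ± 11.6 TPM, SD, n = 3). Basp1 and Stmn1 did not differ beyond their spread there, and all other genes of the set lay under 3 TPM in the mean. In control Marcks was likewise first at 574 ± 71.1 TPM. Gap43 (324 ± 73.7 TPM), Stmn1 (292 ± 38.7 TPM), Marcksl1 (256 ± 20.4 TPM) and Gas7 (254 ± 49.8 TPM) followed within their spread, ahead of Basp1 (57.7 ± 10.4 TPM), Stmn4 (14.3 ± 3.44 TPM) and Chn2 (6.92 ± 1.52 TPM). Basp1 ranked sixth in control. In Sox10ko it lay above Stmn1 in replicate 2 (249 TPM against 185 TPM) and below it in the other two libraries.

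Spread among replicates also differed by gene. The SD of log2 CPM (prior count 2) over the Sox10ko libraries was 1.31 for Gap43, 1.65 for Gas7 and 1.19 for Chn2, where the median of all tested genes was 0.230. Over the control libraries the same genes had an SD of 0.348, 0.289 and 0.339, with a median of 0.162 for all tested genes. Stmn1 was more even in Sox10ko, at 0.0894, than in control, at 0.213. The Sox10ko SD of Chn2 rests on 7 reads in replicate 2 and 0 in the other libraries, and so on the prior count as well. Those of Gap43 and Gas7 rest on 12 to 64 and 15 to 131 reads per library. The median of all tested genes is not matched for level, so counting noise may add to the differences from it. Stmn4, also with few Sox10ko reads, had an SD of 0.227 in Sox10ko and 0.351 in control.

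Genes with the most similar profile over the 6 libraries were taken by Euclidean distance of centred log2 CPM among 11248 genes. For Gap43 they were Erbb3, the neuregulin receptor gene, at 2.61 CPM in Sox10ko and 423 CPM in control, Lgi4 (1.17 CPM in Sox10ko and 158 CPM in control) and Col28a1 (3.20 CPM in Sox10ko and 255 CPM in control), at distances of 1.04, 1.18 and 1.44. For Gas7 they were Gjc3 (0.213 CPM in Sox10ko and 164 CPM in control), Apod (0.271 CPM in Sox10ko and 213 CPM in control) and again Lgi4, at distances of 1.51, 1.62 and 2.03. Gjc3 and Apod had 24 and 31 Sox10ko reads in all and came past the low-count filter by their control reads. For Stmn1 they were Cep131, a centrosomal protein gene (7.92 CPM in Sox10ko and 12.2 CPM in control), Tmem177 and Tdp1, a DNA repair gene, at distances of 0.141, 0.142 and 0.149. Over 6 libraries in 2 groups, such nearness includes the size of the group difference, and it is given as a description. Calls of these genes for the same contrast follow in part from that choice and support nothing. The Cep131 call was lost when control replicate 1 or 3 was left out (edgeR adjusted p = 0.0809 and 0.0965), that of Tmem177 when control replicate 3 was (edgeR adjusted p = 0.0593), and the Lgi4 fold moved 1.63 times without Sox10ko replicate 3.

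Promoter sequence is shown for genes that ran opposite ways, Basp1 higher, Marcksl1 and Chn2 lower in Sox10ko. RefSeq windows on GRCm38.p6 matched 4 of the 10 genes, and the 250 bases before the start are shown for these 3 genes, for Chn2 at the 1 of its 4 starts where they hold no annotated exon. The fourth gene, Stmn3, was not tested, and its window, not shown, holds the first of the motifs below once. Capitals mark 3 motifs of SOX-type letters on either strand. The motif ACAAAG occurred in 16.5% of 32851 such windows, the motif ACAATG in 10.7% of them and the motif AACAAT in 9.4%, and any of them in 29.6%. The last pair can overlap each other. The Basp1 window (chr15:25413765-25414014, minus strand) holds none of them and has a GC content of 78.8%, where the median window has 52.4%. The Marcksl1 window (chr4:129513331-129513580, plus strand) holds none and has a GC content of 60.4%. An internal Chn2 start (chr6:54264608-54264857, plus strand) holds ACAAAG once and has a GC content of 50.4%. The Chn2 windows not shown differ from it. Those at chr6:54039682-54039931 (GC content 74.8%) and chr6:54268906-54269155 hold none of the motifs. That at chr6:54272572-54272821 holds ACAAAG and AACAAT once each. These matches describe letters in these windows and no binding.
Basp1: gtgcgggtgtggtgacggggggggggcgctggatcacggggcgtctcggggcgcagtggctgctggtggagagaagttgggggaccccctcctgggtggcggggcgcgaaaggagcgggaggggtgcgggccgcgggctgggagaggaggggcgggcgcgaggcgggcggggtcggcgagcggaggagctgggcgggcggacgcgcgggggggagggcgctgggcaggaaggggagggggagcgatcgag
Marcksl1: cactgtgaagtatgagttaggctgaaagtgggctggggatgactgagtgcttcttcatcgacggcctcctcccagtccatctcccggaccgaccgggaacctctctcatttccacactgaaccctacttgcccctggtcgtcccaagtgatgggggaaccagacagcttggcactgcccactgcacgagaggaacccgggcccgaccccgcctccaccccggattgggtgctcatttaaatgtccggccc
Chn2: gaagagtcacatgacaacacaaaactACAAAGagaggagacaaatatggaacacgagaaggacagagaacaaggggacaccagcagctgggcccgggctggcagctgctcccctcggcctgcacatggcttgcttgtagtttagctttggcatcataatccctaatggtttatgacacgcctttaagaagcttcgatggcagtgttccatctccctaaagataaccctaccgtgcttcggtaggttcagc

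Neighbouring genes were read to place the 10 in their surroundings. Of the 60 nearest tested genes, 3 on each side of each of the 10, 11 were lower and 15 higher in Sox10ko (edgeR, adjusted p under 0.05), where 14.7% of all tested genes were lower and 17.3% higher. The median log2 fold change was 0.05 for the neighbours and 0.02 for all tested genes. Of the 15 higher, Gm48957, Tigit, Il7 and Trim63 had 4, 3, 3 and 21 control reads in all and came past the low-count filter by their Sox10ko reads. Of the 11 lower, C030047K22Rik had 3 Sox10ko reads and came past it by its control reads. Around Gas7, 0 of 6 neighbours were lower and 1 was higher, the nearest being Stx8 at 277 kb. Around Gap43, 1 was lower and 3 were higher, Tigit among them at 1310 kb. These genes were far off, the nearest at 535 kb on the higher-coordinate side and at 3220 kb on the lower. One counted for Basp1 lay 6540 kb away. Around Chn2, 2 of 6 were lower, Scrn1 (log2 fold change -0.83) and Plekha8 (-1.38), and 0 were higher. Around Stmn4, 2 of 6 were lower, Trim35 (-0.41) and Dpysl2 (-0.68).

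A neighbour on the opposite strand lay within 1258 bases of Marcks, Basp1 and Marcksl1, start to start for the first pair and end to end for Marcksl1. The gene 5930403N24Rik, 482 bases from Marcks, was read at 12.5, 6.06 and 5.31 CPM in Sox10ko and at 2.25, 2.71 and 3.00 CPM in control (log2 fold change 1.58 ± 0.36, edgeR adjusted p = 0.0143). Its highest Sox10ko library was replicate 1, as for Marcks itself. Replicates 2 and 3 were in the opposite order, with Marcks at 562 and 643 CPM there, and the control orders differed too. Gm48957, 1258 bases from Basp1, was read at 0.659, 0.986 and 0.299 CPM in Sox10ko and had 4 reads in control, so that only its Sox10ko reads brought it past the low-count filter. Its order among the Sox10ko libraries was that of Basp1, but over 3 libraries with only 22, 42 and 12 reads of Gm48957. Hdac1, 119 bases from Marcksl1, was at 71.7 CPM in Sox10ko and 99.5 CPM in control (log2 fold change -0.47 ± 0.09, edgeR adjusted p = 0.00718).

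**Figure D3:**
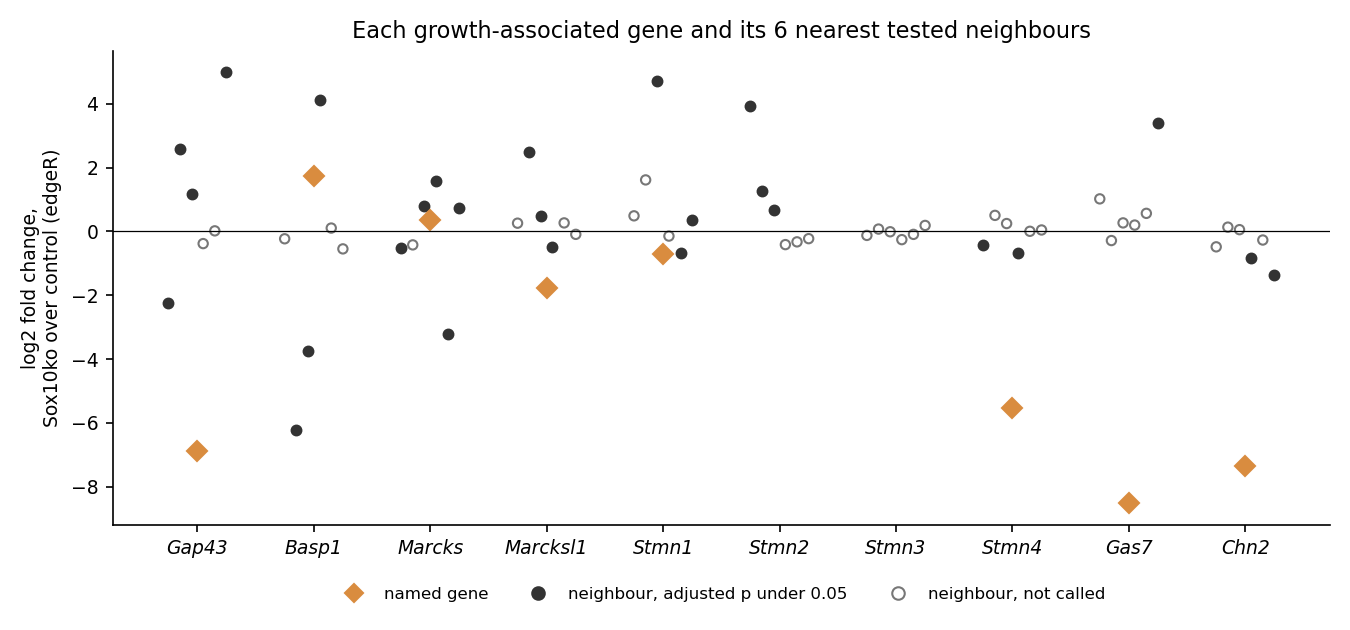
Log2 fold change of Sox10ko over control (edgeR) for each of the 8 tested genes of the set (diamonds) and for the 3 nearest tested genes on each side of all 10 (circles, filled where the adjusted p was under 0.05). The diamonds of Gap43, Stmn4, Gas7 and Chn2 lie at -6.89, -5.53, -8.51 and -7.36, below all of their own neighbours.

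The wider machinery of these proteins was followed in 7 lists, 219 genes in all without the 10. Of 190 tested, 49 were lower and 32 higher in Sox10ko (edgeR, adjusted p under 0.05), which is 42.6% of them against 32.0% of all tested genes, with a median log2 fold change of -0.12 against 0.02. Without control replicate 3 the count was 50 in place of 81, and that of all genes 2869 in place of 4939. Microtubule-associated proteins had the largest called share, 64.1%, and the F-BAR family the smallest, 25%.

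Microtubule-associated proteins were lower in 18 of 39 tested genes and higher in 7, with a median log2 fold change of -0.36. Leaving out any 1 control replicate gave 14 lower and 4 higher, and a replicate block 13 and 4. Dclk1, a doublecortin-like kinase, fell to 22.2 ± 1.95 CPM in Sox10ko, against 158 ± 12.2 CPM in control (log2 fold change -2.83 ± 0.11, edgeR adjusted p = 2.86e-05). The neuron navigator genes Nav3 (-1.76 ± 0.12, edgeR adjusted p = 0.00014) and Nav1 (-1.42 ± 0.10, edgeR adjusted p = 0.000179) fell too. Map7d2, which encodes a cofactor of kinesin transport, rose to 3.56 ± 0.42 CPM in Sox10ko, against 0.439 ± 0.193 CPM in control. Map7d2 had 52 control reads in all and came past the low-count filter by its Sox10ko reads. The collapsin response mediator gene Dpysl3 rose 1.66-fold and Macf1, which links actin to microtubules, 1.61-fold.

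Of 15 tested tubulin genes, 5 were lower and 2 higher, with a median of -0.19. The 2 higher genes had a mean under 1 CPM. With a filter at a mean of 5 CPM, 12 tubulin genes were tested, and 5 were lower and 0 higher. The summed level of the 19 listed was 3510 to 3805 CPM in Sox10ko and 4684 to 5039 CPM in control. Tubb2a fell to 53.6 ± 4.17 CPM in Sox10ko, against 103 ± 6.21 CPM in control (edgeR adjusted p = 0.000689). Tuba1a (log2 fold change -0.97 ± 0.21) lost its call without control replicate 3 (edgeR adjusted p = 0.0541), and Tubb5 (-0.43 ± 0.10), the most abundant, without control replicate 1 (edgeR adjusted p = 0.0534) or 3 (edgeR adjusted p = 0.0616). The count for the list was 4 without control replicate 1 and 2 without control replicate 3. Tubulin genes share sequence, and counts between them are uncertain.

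Actin regulators were lower in 10 and higher in 8 of 49 tested genes (median -0.09), and this balance was not stable. It was 6 lower and 8 higher without Sox10ko replicate 1, with library size alone as scaling and with a filter at a mean of 5 CPM, and 5 lower and 6 higher without control replicate 1. The kinase genes Pak3 (log2 fold change -1.82 ± 0.19, edgeR adjusted p = 0.000661) and Limk1 (-1.41 ± 0.16, edgeR adjusted p = 0.000834), which act in a chain on cofilin, fell, as did Dbn1 (drebrin, an actin-binding protein of neurites). Enah, whose protein drives filament elongation, rose to 125 ± 48.8 CPM in Sox10ko, against 27.2 ± 2.6 CPM in control (edgeR adjusted p = 0.00153). Cyfip2, of the WAVE complex, rose 7.90-fold and Vasp, a paralogue of Enah, 1.80-fold. The count for the list was 11 without control replicate 1 and 10 without control replicate 3.

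In the F-BAR family, the relatives of Gas7, 2 of 20 tested genes were lower and 3 higher, with a median of 0.12. Pacsin2, a membrane-curving adaptor, fell to 145 ± 28.2 CPM in Sox10ko, against 248 ± 14.1 CPM in control (edgeR adjusted p = 0.00866), and Srgap2 by 0.70 on the log2 scale. Arhgap29, also a GTPase-activating protein, rose 5.52-fold, Fnbp1 2.18-fold and Pstpip1 2.62-fold. The Srgap2 call was lost without any 1 of the control replicates (edgeR adjusted p = 0.0736, 0.0629 and 0.0805 without replicate 1, 2 and 3), that of Pstpip1 without control replicate 3 (edgeR adjusted p = 0.0861), and the list then had 3 calls.

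Protein kinase C, calmodulin, calcineurin and lipidation genes, which act on GAP43 and the MARCKS proteins, were lower in 4 and higher in 3 of 22 (median -0.18). Prkcb fell to 0.693 ± 0.488 CPM in Sox10ko, against 6.97 ± 1.53 CPM in control (log2 fold change -3.33 ± 0.52, edgeR adjusted p = 0.0033; -4.05 without Sox10ko replicate 3), and Rcan1, a calcineurin inhibitor, fell by 0.53 on the log2 scale. Prkce rose 2.63-fold (edgeR adjusted p = 0.00119). Prkca (log2 fold change 0.51 ± 0.12) was no longer called without Sox10ko replicate 3 or control replicate 1 or 3 (edgeR adjusted p = 0.0511, 0.0763 and 0.0693). Rcan2 (-1.69 ± 0.50) was not called without Sox10ko replicate 2 or 3 or control replicate 2 or 3 (edgeR adjusted p = 0.0903, 0.0989, 0.11 and 0.0782). The list had 4 calls without control replicate 3, and 2 lower and 3 higher without Sox10ko replicate 2 or control replicate 2.

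Regeneration-associated genes of neurons were mixed, 4 lower and 4 higher of 16 tested (median -0.09). Gpm6b, a membrane glycoprotein gene of the proteolipid family, fell to 408 ± 128 CPM in Sox10ko, against 2573 ± 197 CPM in control (edgeR adjusted p = 0.000393), and Flrt3, an adhesion molecule gene, to 37% of its control level. Il6 rose to 2.16 ± 0.44 CPM in Sox10ko, against 0.227 ± 0.155 CPM in control, Cacna2d1 1.63-fold and Stat3 1.58-fold. Il6 had 26 control reads in all and came past the low-count filter by its Sox10ko reads. Plppr3 (log2 fold change -0.86 ± 0.21) lost its call without control replicate 1 or 2 (edgeR adjusted p = 0.0505 and 0.0599).

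**Figure D4:**
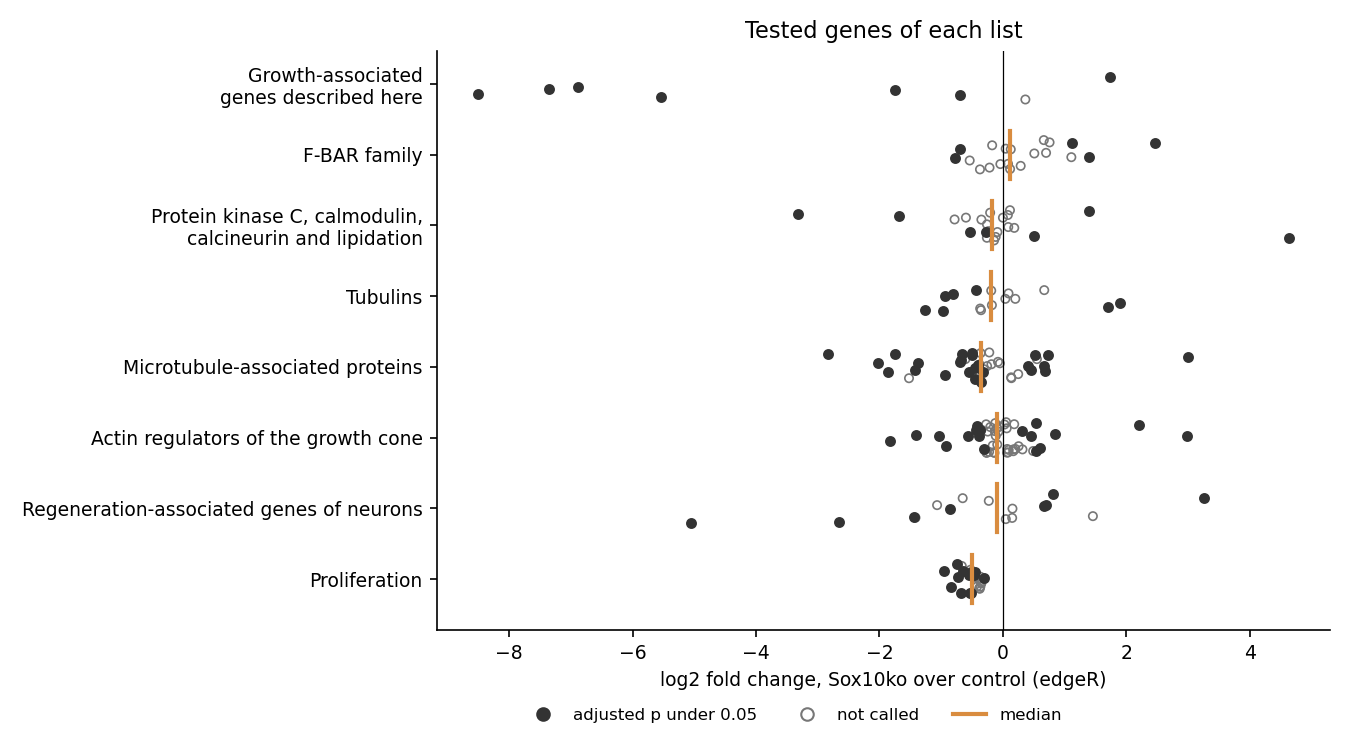
Log2 fold change of Sox10ko over control (edgeR) for each tested gene, by list, filled where the adjusted p was under 0.05. Bars mark the medians of 6 machinery lists and of the proliferation list, which lie between -0.50 and 0.12, and the top row holds the 8 tested genes described here, which run from -8.51 to 1.74.

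Since Gap43 and the stathmins are also used as neuron markers, markers of other cell types were listed. Of 16 neuron markers 7 could be tested. Of these 1, Uchl1, was lower and 0 higher, where 14.7% of all tested genes were lower and 17.3% higher. The median log2 fold change of the 7 was 0.66, opposite in sign to that call and to the sum below. The count depended on single libraries: it was 0 lower and 2 higher without Sox10ko replicate 2, 0 and 0 without Sox10ko replicate 3, control replicate 1 or control replicate 3, 2 lower and 0 higher without Sox10ko replicate 1, and 2 lower and 1 higher without control replicate 2. Rbfox3 had 0 reads in all libraries. The summed level of the 16 was 297 to 413 CPM in Sox10ko and 478 to 536 CPM in control, most of it from Uchl1 (308 ± 72.1 CPM in Sox10ko and 487 ± 37.0 CPM in control), a gene also expressed outside neurons. Fibroblast markers, 2 of 4 tested higher, summed to 658 to 1910 CPM in Sox10ko and 285 to 335 CPM in control, mostly from Col1a1. Leukocyte and endothelial markers, 1 lower and 1 higher of 3 tested, summed to at most 11.2 CPM in Sox10ko and 5.25 CPM in control, with Itgam at 0 reads, and melanocyte markers, 0 of 2 called, to at most 29.2 CPM in Sox10ko and 24.9 CPM in control. Without control replicate 3 the lower leukocyte or endothelial call was lost, and 1 melanocyte marker was lower without Sox10ko replicate 1 or 2 or control replicate 1. The part of these markers in the differences above was not tested.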

How the data were processed

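The authors deposited raw read counts per Ensembl gene, 1 table per library. The submitters' processing notes name mm10 (GRCm38), HTSeq, DESeq2 and STAR 2.6.0c. Their roles, the annotation release and the strand setting: not given in the sources used here. Per the labels' protocols, libraries came from a stranded mRNA kit. Symbols and exonic lengths came from GENCODE M21, which matched 54042 of 54109 IDs, and promoters from RefSeq. Genes were filtered with filterByExpr, scaled with TMM and tested with edgeR 4.0.16 (quasi-likelihood F test, two-sided, R 4.3.3) for genotype over all 6 libraries, with Benjamini-Hochberg adjustment over 15427 genes and a threshold of 0.05. The SE is the log2 fold change divided by the square root of F. Folds are ratios of mean CPM. P-values measure the spread between these cultures, and no clone structure is modelled. No replicate pair agreed within sampling noise (chi-square per degree of freedom 24.7 to 80.9).

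The 10 genes, the lists and the tests were chosen with earlier results of these data known. The text names the 10, in each list up to 3 called genes per direction with the lowest adjusted p and a mean of at least 1 CPM, and the 3 nearest profiles of Gap43, Gas7 and Stmn1. The alternatives were other scalings and filters, DESeq2 1.42.0, a replicate block and leaving out each library. One of the 7 machinery lists enters the totals, and it and its genes are not reported here by themselves. The fit was first tested on simulated counts with known changes. Far fewer genes were changed there than were called here, so that test does not cover changes as widespread.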

Additional observations from a re-analysis of the deposited data

How the results depend on the processing

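All 95 values of the 8 tested genes of the set kept their direction under the alternatives run, and Stmn4 was not tested under the stricter filter, a mean CPM of 5 or more. The count of these genes with an adjusted p under 0.05 was 7 with every library left out in turn and 6 with that filter. Over all genes the count was 4939, 3386 under that filter and 5690 with DESeq2, and with 1 library left out it ran from 2869 to 4681. With 1 library left out, the count over the 7 machinery lists ran from 50 to 77, against 81. That of neighbours then ran from 18 to 28, against 26. DESeq2 gave 93 machinery calls and 28 neighbour calls. Proliferation genes had 14 calls, and 7 to 19 with 1 library left out. Under the stricter filter the kinase and calmodulin list had 4 calls against 7, and the regeneration list 5 against 8. Library size alone as scaling moved the median of all genes to 0.08. Same-numbered libraries did not deviate together (correlations of -0.119, -0.0418 and 0.0355 over 15427 genes). These values show no pairing by number, and with 3 libraries per group they cannot exclude one. With a replicate block 3537 genes were called over all, 60 in the machinery lists, 22 among neighbours and 7 of the set, 11 of the actin list against 18 and 8 of the proliferation list against 14. Of 499 values of the 42 other named genes, 23 lost their call and 0 reversed; the cause was not tested. Depth limits Stmn2 in both groups and Stmn4 and Chn2 in Sox10ko, where no library held over 7 reads, and Stmn3, with at most 26.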
